A study of Mus musculus with 8 samples.

Results

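The 9 B lymphocyte development genes were Ebf1, Pax5, Rag1, Rag2, Vpreb1, Igll1, Cd79a, Cd79b and Ms4a1. They were chosen by name, for their known roles in the B lineage, from the 43346 gene identifiers counted, and all 9 were present. RNA-Seq measured their mRNA abundance in notochord-derived cells (NDCs), which form the nucleus pulposus (NP) of the intervertebral disc. All mice carried Shh-cre and ROSA:YFP, in which Cre made from the Shh locus switches on yellow fluorescent protein (YFP) permanently, so that any cell with a history of Shh expression is marked. There were 4 litters at embryonic day 12.5 (E12.5), named NDP10.2, NPD3, NPD4 and NPD9.2, and 4 at postnatal day 0 (P0), named NPD26, NPD27, NPD28 and NPD30, with about 6 animals pooled per litter. E12.5 notochords were dissected whole and frozen without sorting, whereas P0 thoracic and lumbar discs were opened, NP cells were shaken loose and YFP-positive cells were sorted. Stage and isolation method therefore cannot be told apart. Values for litters are given in the order in which the litters are named here.

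B lymphocytes arise from blood progenitors, in the fetal liver before birth and in the bone marrow afterwards. Ebf1 and Pax5 switch on the B lineage program, the Rag1 and Rag2 recombinase cuts the immunoglobulin genes so that V, D and J segments can be joined, and a new heavy chain is first displayed with a surrogate light chain made of Vpreb1 and Igll1. Cd79a and Cd79b carry the signal of this receptor into the cell, and Ms4a1 encodes CD20, a surface protein of later B cells. Ebf1 is also expressed outside blood, in mesenchymal and neural tissues.

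Promoter sequence was available for 7 of the 9 genes (RefSeq, GRCm38.p6). The 250 bases before the transcription start are shown for 4 genes with different parts in the pathway, namely a receptor component, both surrogate light chain genes and a recombinase gene. Capitals mark letters searched on both strands. These were CAGGTG, TCCCNNGG and TCCCNNGA. CAGGTG is an E-box bound by the E2A protein, and TCCCNNGG is part of the longer palindrome that Ebf1 recognises. TCCCNNGA is a variant of TCCCNNGG and is not itself a stretch of that palindrome.

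Cd79a, chr7:24897247-24897496, plus strand: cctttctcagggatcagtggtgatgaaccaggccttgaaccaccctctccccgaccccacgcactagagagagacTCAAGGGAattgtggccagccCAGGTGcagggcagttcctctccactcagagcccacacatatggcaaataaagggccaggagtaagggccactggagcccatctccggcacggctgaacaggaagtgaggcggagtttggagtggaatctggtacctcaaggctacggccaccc
Vpreb1, chr16:16869256-16869505, minus strand: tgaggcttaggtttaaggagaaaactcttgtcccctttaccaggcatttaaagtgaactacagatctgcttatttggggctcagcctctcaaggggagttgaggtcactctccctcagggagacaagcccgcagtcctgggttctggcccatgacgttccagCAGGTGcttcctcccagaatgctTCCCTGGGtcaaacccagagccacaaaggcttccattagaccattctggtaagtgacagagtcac
Igll1, chr16:16863986-16864235, minus strand: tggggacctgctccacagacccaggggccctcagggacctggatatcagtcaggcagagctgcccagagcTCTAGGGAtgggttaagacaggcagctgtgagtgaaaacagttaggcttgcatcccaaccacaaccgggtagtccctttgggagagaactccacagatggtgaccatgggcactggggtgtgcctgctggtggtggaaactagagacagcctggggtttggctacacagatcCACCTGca
Rag1, chr2:101649533-101649782, minus strand: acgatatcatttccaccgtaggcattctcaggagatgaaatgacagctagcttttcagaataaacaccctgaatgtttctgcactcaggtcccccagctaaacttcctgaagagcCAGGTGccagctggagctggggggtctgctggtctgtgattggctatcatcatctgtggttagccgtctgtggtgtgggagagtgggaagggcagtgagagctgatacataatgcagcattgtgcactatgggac

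Vpreb1 held a CAGGTG and TCCCNNGG, the part of the Ebf1 palindrome. Cd79a and Igll1 each held a CAGGTG and the variant TCCCNNGA, and Rag1 held CAGGTG alone. In Vpreb1 the CAGGTG lay 88 to 83 bases before the start and TCCCNNGG lay 65 to 58 bases before it. In Cd79a the TCCCNNGA, on the opposite strand, lay 175 to 168 bases before the start and CAGGTG 154 to 149. In Igll1 the TCCCNNGA lay 180 to 173 bases before the start and CAGGTG 8 to 3, both on the opposite strand. Pax5 and Rag2 held TCCCNNGA alone, and the windows before the Ebf1 starts held none of these letters. Of 32851 promoters of this length, 17.2% held CAGGTG, 19.0% held TCCCNNGG, 15.1% held TCCCNNGA, and 0.779% held the whole Ebf1 palindrome, which none of the 7 genes had. The RefSeq starts can differ from those of Gencode, and the windows of Cd79a, Vpreb1 and both Ebf1 starts lie partly or wholly inside the Gencode gene bodies. A match is a stretch of letters and was not measured as a binding site.

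Reads counted on genes numbered 4442775 to 8904050 per litter, which was 22.6% to 34.8% of all reads, and 3 counts corresponded to 0.353 to 0.738 CPM, the count scaled to library size. The summed level of 10 notochord markers was 2382 to 6367 CPM at E12.5 and 8220 to 31824 CPM at P0. Car3 alone, at 6250 to 24889 CPM, supplied most of this sum in each P0 litter. Of the 9 notochord markers tested, 3 rose at P0, 2 fell and 4 did not pass the test. The sum of 12 pan-leukocyte markers was 85.9 to 156.1 CPM at E12.5 and 500.9 to 4495 CPM at P0, so the sorted P0 libraries held leukocyte mRNA and all 12 of these genes rose. In pooled tissue RNA, fewer cells of a type and less RNA per cell cannot be told apart.

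All of the 9 genes other than Ebf1 had 9 counts or fewer in every E12.5 litter and had a higher mean at P0. Ebf1, which was abundant at both stages, did not pass the test. Of the 5 genes that passed the filter on low counts, 4 rose at P0 (Cd79a, Cd79b, Ms4a1 and Rag1) and 0 fell, by edgeR's quasi-likelihood test with an adjusted p under 0.05. Of all 15467 genes tested, 16.0% rose and 12.0% fell, 27.9% in all. Pax5, Rag2, Vpreb1 and Igll1 did not reach the count minimum in enough litters to pass the filter, and were tested only in a fit of all 32299 genes with a count, of which 9.18% rose and 5.97% fell. In that fit Igll1 and Rag2 rose, Pax5 and Vpreb1 did not pass the test, and Cd79a no longer passed it, so that 5 of the 9 rose. In 6 of the 9 genes every P0 litter was above every E12.5 litter, against 9.76% of all genes with a count. Apart from Ebf1, the genes that passed the filter did so through their P0 counts, so the share of them that rose is a description.

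**Figure D1:**
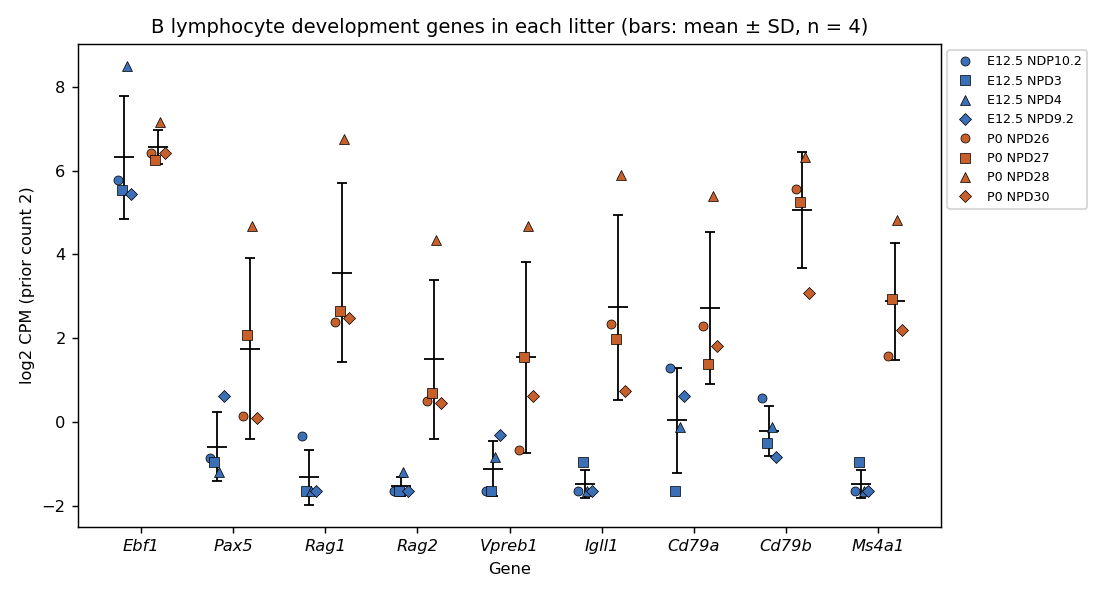
mRNA abundance (log2 CPM, prior count of 2) of the 9 genes in each of the 8 litters, with the mean and SD of the log2 values (n = 4 litters per stage). All 9 genes were highest at P0 in NPD28 (upward triangles), and the E12.5 value of Ebf1 that stands above the others belongs to NPD4.

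Ebf1, the transcription factor at the head of the program, lies at chr11:44617317-45008091 on the plus strand (GRCm38, Gencode M21, as are all gene positions given here). Its mRNA abundance was 54.7, 45.9, 360.9 and 43.3 CPM in the E12.5 litters, against 84.9, 75.4, 142.7 and 84.9 CPM in the P0 litters. The stages overlapped, because NPD4 at E12.5 was above every P0 litter while the other 3 E12.5 litters were below every P0 litter. The E12.5 mean was 126.2 ± 156.5 CPM, that of P0 was 97.0 ± 30.8 CPM (SD, n = 4), and the log2 fold change of P0 over E12.5 was -0.38 (SE 0.67, adjusted p = 0.712). Without NPD4 it was 1.01 (SE 0.29, adjusted p = 0.0247), so this litter decided both the direction and the call. NPD4 also had the highest sum of 10 neural tube and neuron markers, 2021 CPM against 109.7 to 159.3 CPM in the other E12.5 litters and 314.1 to 871.2 CPM at P0. In NPD4 this sum came mainly from Stmn2 (689.3 CPM), Tubb3 (576.4 CPM), Isl1 (392.2 CPM) and Elavl3 (288.7 CPM). Among the E12.5 litters Sox2, Nkx2-2 and Neurog1 were also highest in NPD4, whereas Pax6 (1.57 CPM) was lowest there and Nkx6-1 and Olig2 lay between the others. The part of these genes in the Ebf1 value was not tested. Among the genes whose pattern over the 8 litters was nearest to that of Ebf1, by root mean square difference of centred log2 CPM, were Tub (0.436) and Kif5c (0.451), of 12686 candidates.

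Pax5, which holds cells to the B lineage, lies at chr4:44524757-44710487 on the minus strand. It had 1, 1, 1 and 5 counts in the E12.5 litters, against 5, 27, 215 and 5 in the P0 litters, which were 0.786, 3.89, 25.3 and 0.758 CPM. The stages overlapped, since the 1.23 CPM of NPD9.2 at E12.5 was above NPD26 and NPD30 at P0. The log2 fold change was 4.23 (SE 1.47) with an adjusted p of 0.108 in the fit without a filter, and 2.04 (adjusted p = 0.256) without NPD28. Pax5 passed the test when NPD3, NPD4, NPD9.2, NPD26, NPD27 or NPD30 was left out, with log2 fold changes of 3.84 to 5.34. Its exons share 636 bases with 5730488B01Rik and 125 with Gm12462 on the opposite strand, and the sources used here do not say whether counting used strand.

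Rag1 and Rag2 are neighbours on chromosome 2, at chr2:101638282-101649501 on the minus strand and chr2:101624718-101632529 on the plus strand, and encode the recombinase that cuts antigen receptor genes. Rag1 had 2, 0, 0 and 0 counts in the E12.5 litters, against 31, 41, 920 and 35 in the P0 litters, which were 4.87, 5.91, 108.3 and 5.31 CPM. Every P0 litter was above every E12.5 litter, and NPD28 was far above the other 3. The log2 fold change of Rag1 was 8.09 (SE 1.67, adjusted p = 0.00573), and without NPD28 it was 5.51 (adjusted p = 0.00387). Rag2 had 0, 0, 1 and 0 counts in the E12.5 litters, against 7, 9, 170 and 7 in the P0 litters, which were 1.10, 1.30, 20 and 1.06 CPM. The stages did not overlap here either, although 3 of the 4 P0 litters had only 7 to 9 counts. Without a filter the log2 fold change of Rag2 was 6.56 (SE 1.27, adjusted p = 0.00042), and without NPD28 it was 4.24 and no longer passed the test (adjusted p = 0.082). Pooled over litters and scaled to library size, the P0 to E12.5 ratio was 393 for Rag1 (95% counting interval 108 to 3250) and 148 for Rag2 (26.2 to 5860). Exons of B230118H07Rik overlap Rag1 by 80 bases on the same strand and Rag2 by 208 bases on the opposite strand, so reads there are uncertain. The wide intervals come from the 2 and 1 counts at E12.5, and they cover counting error only. NPD28 supplied 89.6% of the P0 counts of Rag1 and 88.1% of those of Rag2.

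Vpreb1 and Igll1 are also neighbours, on chromosome 16 at chr16:16868403-16870843 and chr16:16860671-16863985, both on the minus strand, and their products pair to form the surrogate light chain of pre-B cells. Vpreb1 had 0, 0, 2 and 2 counts in the E12.5 litters, against 2, 18, 214 and 8 in the P0 litters, which were 0.315, 2.60, 25.2 and 1.21 CPM. NPD26, with 2 counts, lay below NPD9.2 at E12.5, so the stages overlapped. The log2 fold change of Vpreb1 without a filter was 5.22 (SE 1.72, adjusted p = 0.097), and 2.77 without NPD28 (adjusted p = 0.195). As for Pax5, it passed the test when any litter other than NDP10.2 and NPD28 was left out, at 4.85 to 5.89. Igll1 had 0, 1, 0 and 0 counts in the E12.5 litters, against 30, 25, 500 and 9 in the P0 litters, which were 4.72, 3.61, 58.9 and 1.36 CPM. Its stages did not overlap, and the log2 fold change was 8.04 (SE 2.07, adjusted p = 0.0479). Without NPD28 it was 5.55 with a smaller adjusted p of 0.000385, whereas leaving out any of the 4 E12.5 litters raised the adjusted p to between 0.125 and 0.288. The test of Igll1 therefore sat at the threshold. Its pooled ratio was 431 (95% counting interval 77.1 to 17100), but NPD28 supplied 88.7% of its P0 counts. That interval covers counting error only and not the spread between litters. Of the 100-base windows of Vpreb1, 7.75% were identical to sequence of another gene, its paralog Vpreb2, and Igll1 shared none. Vpreb1 also overlaps exons of Top3b, on the opposite strand, by 108 bases.

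Cd79a and Cd79b encode the signalling pair of the B cell receptor. Cd79a, at chr7:24897381-24902197 on the plus strand, was 2.12, 0, 0.604 and 1.23 CPM in the E12.5 litters, against 4.56, 2.31, 41.4 and 3.18 CPM in the P0 litters. The stages did not overlap, though NPD27 at P0 was barely above NDP10.2 at E12.5. The log2 fold change of Cd79a was 3.76 (SE 1.16, adjusted p = 0.0364), and it lost the call without NPD28 (1.80, adjusted p = 0.167), NPD3 (3.29, adjusted p = 0.079), NPD4 (3.55, adjusted p = 0.102) or NPD9.2 (3.85, adjusted p = 0.0775). The E12.5 mean was 0.989 ± 0.907 CPM and that of P0 was 12.9 ± 19.1 CPM (SD, n = 4), so the SD at P0 exceeded the mean.

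Cd79b, at chr11:106311341-106314762 on the minus strand, was 1.18, 0.39, 0.604 and 0.246 CPM in the E12.5 litters, against 46.9, 38.1, 79.9 and 8.19 CPM in the P0 litters. The P0 litters were all far above the E12.5 litters, and NPD26 and NPD27 stood much closer to NPD28 than they did for Cd79a. The E12.5 mean was 0.605 ± 0.410 CPM and that of P0 was 43.3 ± 29.5 CPM (SD, n = 4), for a log2 fold change of 6.13 (SE 0.75, adjusted p = 0.000456). It stayed between 5.65 and 6.50 and past the test whichever litter was left out. The nearest patterns over the 8 litters differed between the pair. They were Dock2 (0.499), Syk (0.499), a kinase inside the cell that acts at the B cell receptor, and Sash3 (0.57) for Cd79b. For Cd79a they were Nbeal2 (0.563), Alox5 (0.64) and Def6 (0.731).

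Ms4a1, at chr19:11249675-11266241 on the minus strand, had 0, 1, 0 and 0 counts in the E12.5 litters, against 17, 51, 236 and 28 in the P0 litters, which were 2.67, 7.35, 27.8 and 4.24 CPM. No litters overlapped between stages, and NPD26 was the lowest of the P0 litters. The log2 fold change of Ms4a1 was 7.31 (SE 1.18, adjusted p = 0.00149), 6.14 without NPD28, and past the test without any 1 litter. The genes nearest to Ms4a1 were Cd177 (0.596), Mmp25 (0.609) and Rassf5 (0.617), and those near to Rag1 included Camp (0.6) and Asprv1 (0.622). Camp and Cd177 are known as neutrophil genes.

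**Figure D2:**
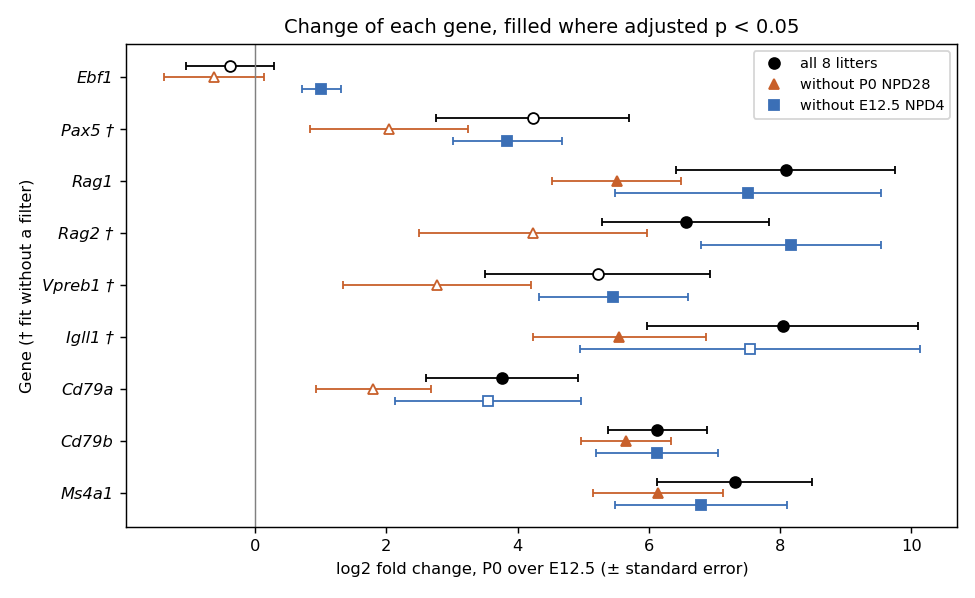
Log2 fold change of P0 over E12.5 with its standard error for each of the 9 genes, with all 8 litters (circles), without NPD28 (triangles) and without NPD4 (squares), filled where the adjusted p was under 0.05. Cd79b, Ms4a1 and Rag1 stayed filled in all 3 fits, and Ebf1 moved from -0.38 to 1.01 without NPD4.

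Per kilobase of exon, the order of the mean P0 levels was Cd79b (30.2 ± 20.6 CPM per kb, SD, n = 4), Ebf1 (9.94 ± 3.16), Cd79a (8.83 ± 13.1), Igll1 (7.92 ± 12.9), Vpreb1 (6.11 ± 9.96), Rag1 (4.71 ± 7.79), Rag2 (1.71 ± 2.75), Ms4a1 (1.70 ± 1.89) and Pax5 (0.868 ± 1.34). Cd79b had rank 1 in NPD26, NPD27 and NPD28 and rank 2 in NPD30, where Ebf1 was above it. Neighbours in this order differed by less than the larger SD of the pair, but the genes share litters. Within litters, Cd79b was above each of the other genes except Ebf1 in all 4, Ebf1 was above Rag2, Ms4a1 and Pax5 in all 4, and Cd79a was above Rag1, Rag2, Ms4a1 and Pax5 in all 4. For every gene other than Cd79b and Ebf1 the SD exceeded the mean. At E12.5 Ebf1 was at 12.9 CPM per kb.

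The genes differed in how much of their P0 signal came from NPD28, a comparison chosen after the values were seen. Of the reads counted at P0, NPD28 supplied 89.6% for Rag1, 52.4% for Cd79b and 42.8% for Ebf1. Relative to the median of the other 3 P0 litters, the level in NPD28 was 20.1 times as high for Pax5, 18.7 for Rag1, 15 for Vpreb1, 14.5 for Igll1, 12.8 for Rag2, 11.4 for Cd79a, 5.96 for Ms4a1, 2.09 for Cd79b and 1.68 for Ebf1 (ratios of CPM + 0.5). The median over the 9 genes was 12.8, against 0.995 over all genes tested, and NPD28 was the highest P0 litter for all 9 genes and for 27.5% of the genes tested. Pax5, the recombinase genes and the surrogate light chain genes thus lay between 12.8 and 20.1, and Cd79a, Cd79b and Ms4a1 between 2.09 and 11.4. The same ratio had a median of 9.04 over 14 neutrophil markers, 1.95 over 12 pan-leukocyte markers, 0.374 over 10 macrophage markers and 0.995 over 10 notochord markers. Across the 14 neutrophil markers, 10 were highest in NPD28 and the other 4 had ratios of 0.181 to 0.488. Among 40 other B lineage genes the median was 2.06, close to that of the pan-leukocyte markers, so the high ratios describe the 9 genes and not B lineage genes at large. The part of the other leukocytes in these values was not tested.

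**Figure D3:**
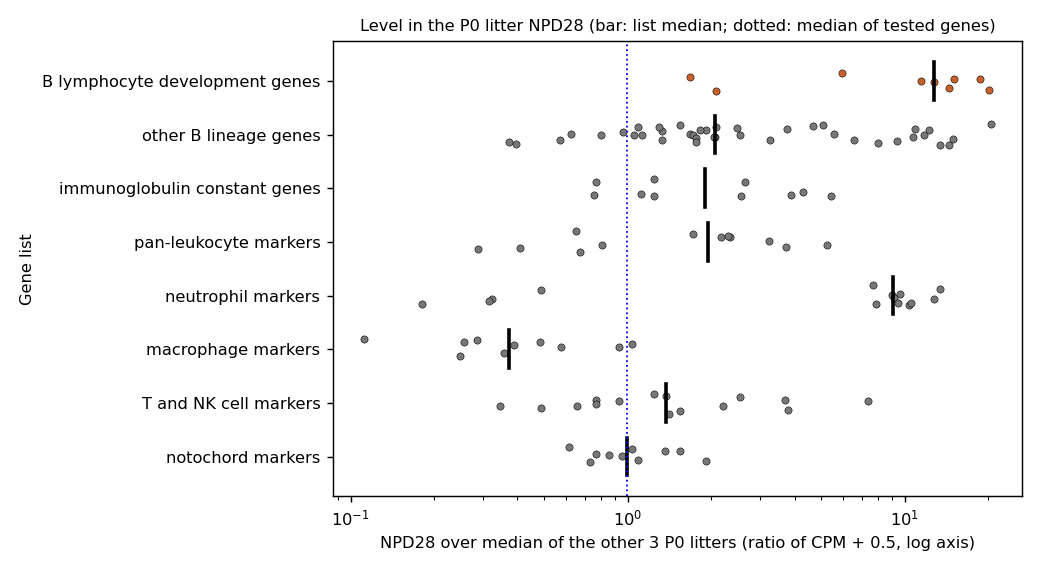
Level of each gene in NPD28 divided by the median of the other 3 P0 litters (ratio of CPM + 0.5, log axis), with 1 point per gene, a bar at each list's median and a dotted line at the median of all genes tested (0.995). The B lymphocyte development genes have a median of 12.8, beside 9.04 for neutrophil markers, 4 of which lie below 1, whereas macrophage markers have a median of 0.374.

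The makeup of the signal in each P0 litter is given as a description. Without Ebf1, the other 8 genes summed to 0.976 to 4.01 CPM in the E12.5 litters and to 65.9, 65, 386.8 and 25.3 CPM in the P0 litters, from 419, 451, 3286 and 167 counts. Cd79b made up 71.1% of those counts in NPD26 (95% exact binomial interval 66.5 to 75.4), 58.5% in NPD27 (53.8 to 63.1), 20.7% in NPD28 (19.3 to 22.1) and 32.3% in NPD30 (25.3 to 40.0). Rag1 made up 7.40%, 9.09%, 28.0% and 21%. These intervals cover counting error only and set single litters side by side, so they do not test a difference between litters. The sum of 10 macrophage markers was 6832 and 7502 CPM in NPD26 and NPD27, 3641 CPM in NPD28 and 306.5 CPM in NPD30, and its part in the share of Cd79b was not tested.

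**Figure D4:**
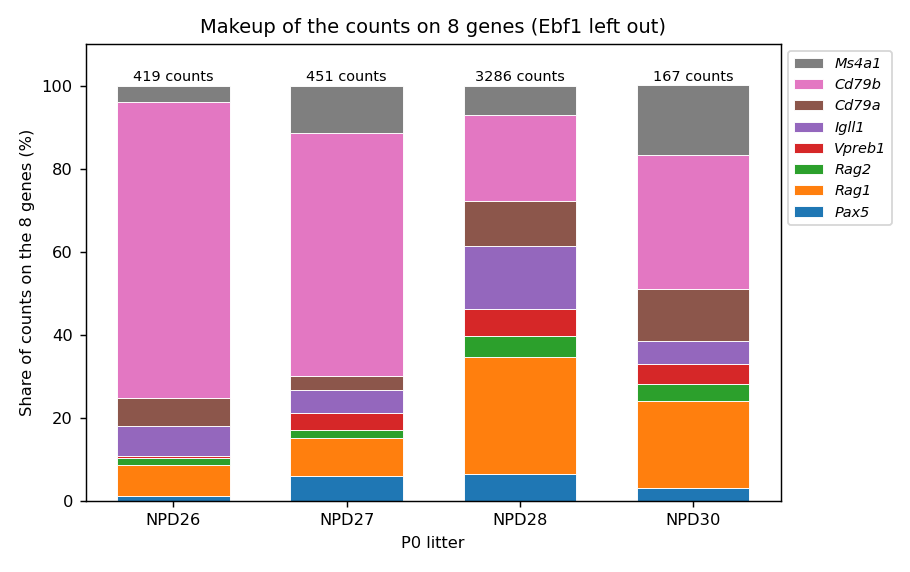
Share of the counts on 8 B lymphocyte development genes (Ebf1 left out) that each gene supplied in the 4 P0 litters, as a percentage of the total printed above each bar. Cd79b is the largest segment in NPD26 (71.1%) and NPD27 (58.5%), and Rag1 is larger than Cd79b in NPD28 (28.0% against 20.7%).

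The other genes of the lineage were examined as lists. Of 40 other B lineage genes, 31 were tested, 24 rose, 2 fell and 5 did not pass the test, with the same limit of the filter as for the 9 genes. Their median log2 fold change was 4.39, against 0.04 over all genes tested, of which 16.0% rose and 12.0% fell. Bst1, a surface enzyme of early B cells and of myeloid cells, was at 0 counts in every E12.5 litter and at 5.35, 7.79, 47.2 and 5.46 CPM at P0, with NPD28 holding 76.4% of its P0 counts. Siglecg, an inhibitory receptor, rose by 7.39 on the log2 scale (adjusted p = 0.00514). Bank1, an adaptor of B cell receptor signalling, rose by 6.97 on the log2 scale (adjusted p = 0.00217), and unlike the 9 genes it was highest in NPD26, at 59.3 CPM against 33.5 CPM in NPD28. Of the 40 genes, 26 were highest in NPD28. The 2 that fell were Bach2 (log2 fold change -1.42, adjusted p = 0.00436) and Arpp21 (-1.27, adjusted p = 0.0239).

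Immunoglobulin transcripts were present at P0 as well. Ighm, the constant region of the heavy chain displayed first, was 1.18, 3.32, 2.66 and 6.15 CPM at E12.5 and 100.8, 111.5, 393.5 and 34.4 CPM at P0. Its log2 fold change was 5.60 (SE 0.81, adjusted p = 0.00111). Igkc, the kappa light chain constant region, rose with a log2 fold change of 5.81 (SE 1.20, adjusted p = 0.00573). These were the only 2 of the 10 constant region genes found that passed the filter. Ighd, used by mature naive B cells, had 0 counts in every E12.5 litter and 44, 15, 93 and 8 at P0. The 310 V, D and J segment genes had 0, 1, 2 and 2 counts at E12.5, against 115, 177, 424 and 66 at P0, spread over 42, 65, 98 and 37 different segments. Heavy chain segments supplied 65, 105, 304 and 34 of the P0 counts, more than kappa or lambda in every P0 litter. Markers of mature B cells did not all follow. Cr2 (log2 fold change -0.56, adjusted p = 0.561) and Fcer2a (0.13, adjusted p = 0.904) did not pass the test.

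Among 16 transcription factors of the lineage, all tested, 9 rose, 3 fell and 4 did not pass the test, with a median log2 fold change of 0.90. For comparison, 16.0% of all genes tested rose and 12.0% fell. The largest rises were those of Irf8 (5.11, adjusted p = 0.00433), Spi1 (4.79, adjusted p = 0.00145), Ikzf1 (4.46, adjusted p = 0.000813) and Irf4 (4.39, adjusted p = 0.0483), of which Irf8 and Spi1 also act in myeloid cells. Ikzf1 was 46.7 to 266.9 CPM at P0 and highest in NPD28, whereas Irf8 was highest in NPD27. The E proteins, partners of Ebf1 at B lineage genes, went the other way or did not pass the test. Tcf4 (-1.93, adjusted p = 0.00041) and Tcf12 (-0.83, adjusted p = 0.0245) fell, and Tcf3, which encodes E2A, was at -0.74 (adjusted p = 0.143). The E protein inhibitors moved in opposite directions, as Id3 fell (-1.27, adjusted p = 0.00148) and Id2 rose (0.91, adjusted p = 0.0453). Of the paralogs of Ebf1, Ebf2 (-3.21, adjusted p = 0.00338), Ebf3 (-2.0, adjusted p = 0.00197) and Ebf4 (-2.0, adjusted p = 0.00628) fell. Pax2, a paralog of Pax5, was at -2.44 (adjusted p = 0.0604).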

How the data were processed

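RNA was sequenced as single-end 100-base reads from 4 E12.5 and 4 P0 litters. The authors aligned the reads to GRCm38 with STAR (2.4.0j in the submitters' processing notes) and used htseq-count to count them per gene of Gencode M4. The deposited values are raw counts per gene and sample, without normalization. Rows for reads not assigned to a gene were left out, and held 7.07% to 17.5% ambiguous, 26.3% to 33.7% not unique and 22.7% to 29.5% without a feature. Whether counting used strand is not given in the sources used here. Stages were taken from the sample labels, and each sample is a separate litter. No replicate pair within a stage agreed within sampling noise.

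Symbols, positions and exon overlaps came from Gencode M21, a later annotation on the same build. Genes were tested with edgeR 4.0.16 in R 4.3.3 (TMM normalization, filterByExpr with a minimum count of 10 and a minimum total of 15, robust quasi-likelihood F-test, two-sided) and p-values were adjusted over all genes by the Benjamini-Hochberg method, with calls at an adjusted p under 0.05. CPM used TMM library sizes, and log2 CPM added a prior count of 2. DESeq2 1.42.0 and limma 3.58.1 (voom) served as alternatives, beside other normalizations, no filter, no robust estimate, downsampling, and leaving out litters. The genes and lists were chosen with earlier results of these data known. All 9 genes are named, with up to 4 called genes of largest change per list, genes whose role is needed to read them, and the 3 genes nearest in pattern to each tested gene, among tested genes with a mean log2 CPM of at least 2. A few genes that this rule names are not reported here.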

Additional observations from a re-analysis of the deposited data

Results flagged for a closer look

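Each of the 9 genes was examined at each stage for a litter far from the other 3 (the gap to its nearest neighbour over the whole range, Dixon's test at 95%), which made 18 groups, of which 7 had such a litter. Chance alone marks about 5% of groups. That share does not apply to 4 of the 7, at E12.5, where 3 litters had 0 counts and any count sets the other one apart. Of the remaining 3 groups, at P0 it was NPD28 for Rag1, at 6.76 log2 CPM with the next litter at 2.64, and for Rag2, at 4.35 log2 CPM with the next at 0.69. At E12.5 it was NPD4 for Ebf1, at 8.5 log2 CPM.

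The 4 groups with 3 litters at 0 counts, and 1 or 2 counts in the other, were Ms4a1 in NPD3 (-0.96 log2 CPM), Igll1 in NPD3 (-0.96), Rag1 in NDP10.2 (-0.34) and Rag2 in NPD4 (-1.18), all at the limit of this depth.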

How the results depend on the processing

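Of the 9 genes, Cd79b and Ms4a1 passed the test under every alternative. Rising genes among the 9 numbered 2 with DESeq2, which gave no adjusted p for Cd79a, Rag1 or Ebf1, 2 with limma-voom and 2 without both NDP10.2 and NPD9.2, against 4, and 3 to 5 when 1 litter was left out. None of the 9 fell without 1 litter or under the other alternatives. The count of rising other B lineage genes was 14 with limma-voom, 15 without that pair and 22 to 29 without 1 litter, and that of falling ones was 1 without that pair and 1 to 2 without 1 litter. Without that pair 1493 of all genes rose and 1088 fell, and without 1 litter 2084 to 2586 rose and 1512 to 1943 fell. With no filter 4 immunoglobulin constant genes rose, and 2 to 3 without 1 litter. Ebf1 turned to a log2 fold change of 0.22 with limma-voom (adjusted p = 0.813), and ranged from -0.70 to 1.01 without 1 litter. Pax5 and Vpreb1 passed the test with DESeq2 (adjusted p = 0.00122 and 0.000347) and without robust estimates (adjusted p = 0.000133 and 2.75e-05), and Rag1 did not with limma-voom (log2 fold change 6.45, adjusted p = 0.0568). For these alternatives the cause was not tested. Upper quartile normalization shifted the median of all genes by -0.14 on the log2 scale. No paired analysis was possible because the litters of the stages share no number in the labels. At this depth a gene with 3 counts or fewer in a litter, as most of the 9 were at E12.5, has no resolved level there.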

Other observations

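Genes for signals that support B lymphocyte precursors in marrow were examined as a list of 10. Of these, 6 were tested, 4 rose, 1 fell and 1 did not pass the test, where 16.0% of all genes tested rose. Cxcl12, the chemokine that holds precursors in the marrow, was 71.7, 113.6, 93.1 and 118.3 CPM at E12.5 and 169.5, 291.1, 184.5 and 312.6 CPM at P0, without overlap (log2 fold change 1.27, SE 0.28, adjusted p = 0.0065). Kitl, the ligand of Kit, rose likewise (1.36, SE 0.24, adjusted p = 0.00231). Vcam1, an adhesion molecule, rose by more (4.61, SE 0.90, adjusted p = 0.00433), but NPD30, at 30.0 CPM, lay within the E12.5 range of 16.0 to 33.0 CPM. Igf1 rose (2.14, adjusted p = 0.036), and its 33.2 CPM in NPD30 likewise lay within the E12.5 range of 31.8 to 88.0 CPM. The NPD28 ratio of Vcam1 was 0.394 and that of Igf1 0.39, beside a median of 0.374 over the macrophage markers, whose sum was lowest in NPD30 among the P0 litters, and the part of those cells was not tested. Lepr, a receptor of marrow stromal cells, fell (-2.19, adjusted p = 0.0131). Il7, the cytokine that early B cells depend on, was 4.48, 1.17, 0 and 1.48 CPM at E12.5 and 3.77, 2.45, 6.12 and 13.6 CPM at P0, and did not pass the test (1.92, adjusted p = 0.158). NPD28, the litter highest for the 9 B lymphocyte genes, was highest for 1 of the 9 of these genes that were found.

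The joining step after the cut made by Rag1 and Rag2 relies mostly on DNA repair genes that every cell uses. The list examined for this step also held the lymphoid gene Dntt and the chromatin protein genes Hmgb1 and Hmgb2. Of the 11 genes listed, 10 were tested, and Dclre1c alone rose (2.01, SE 0.60, adjusted p = 0.0309), while 9 did not pass the test. Since 16.0% of all genes tested rose, this count does not set the list apart. Dclre1c overlapped between stages, as NPD30, at 6.22 CPM, lay below every E12.5 litter (6.84 to 16.0 CPM). The untested gene was Dntt, the lymphoid enzyme that adds bases at the joints, which had 0 counts in every E12.5 litter and 15, 6, 20 and 1 at P0. Rag1, Rag2 and Dntt are also used by T cell precursors. Of 15 T and NK cell markers, 2 were tested and Cd4 rose (6.42, SE 1.49, adjusted p = 0.00988), at 177.1, 201.4, 85.8 and 0.758 CPM in the P0 litters. Its stages overlapped, and the macrophage marker Adgre1 had a like order there, at 327.6, 377.1, 127.5 and 2.27 CPM, whose part in the Cd4 value was not tested. Cd3e, which defines T cells, had 6, 0, 1 and 0 counts there. Cd3d, named after its values were seen, had 4, 35, 169 and 15 and was highest in NPD28. Of 7 plasma cell markers, 3 were tested and 0 rose, where 16.0% of all genes tested rose and 12.0% fell. Sdc1, at 29.5 to 59.4 CPM at E12.5, fell (-2.23, SE 0.27, adjusted p = 0.00038). Prdm1 (3.14, adjusted p = 0.0516) and Xbp1 (0.49, adjusted p = 0.149) did not pass the test. Jchain, which links secreted antibodies, had 2, 3, 0 and 1 counts at P0. Mzb1, untested and named after its values were seen, had 0, 1, 3 and 5 counts at E12.5 and 28, 7, 356 and 11 at P0. It was the only 1 of the 7 highest in NPD28.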
